A study of Homo sapiens with 18 samples.

Results

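The genes described here are 10 transcription factor genes of 57500 genes in the count table, matched by symbol. They are 4 Fos genes (FOS, FOSB, FOSL1 and FOSL2), 3 Jun genes (JUN, JUNB and JUND), ATF3, and the 2 C/EBP genes CEBPB and CEBPD. All 10 passed the filter on low counts and were among the 16994 genes tested. Their levels were followed in 18 poly(A) RNA-seq libraries of IMR90 cells, a line of human lung fibroblasts, with 3 libraries in each of 6 groups. The groups were proliferating cells (Prol), cells made senescent by irradiation (Sen (IR)), irradiated cells cleared of mitochondria with CCCP (Sen (IR) + CCCP), and such depleted cells given acetate, transfected mtDNA, or acetate and mtDNA together. CCCP is an uncoupler that collapses the mitochondrial membrane potential, and in the study's model the cells overexpress Parkin, the ubiquitin ligase that then marks mitochondria for mitophagy. CCCP exposure and loss of mitochondria therefore came together, no depleted group was left unirradiated, and none of the 6 groups is labelled as having received the transfection reagent without mtDNA. Comparisons of acetate, of mtDNA and of both with Sen (IR) + CCCP share the same 3 control libraries. Per the study's methods acetate was given repeatedly over the culture, while mtDNA was transfected once, late in it. The kind of addition and the length of exposure therefore cannot be told apart.

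AP-1 is a dimer of leucine-zipper (bZIP) proteins, either of a Jun protein with a Fos or ATF protein or of Jun proteins with each other, and it binds the TRE and CRE elements of promoters and enhancers. FOS, FOSB, JUN, JUNB and ATF3 are immediate early or stress-response genes, whose transcripts can appear within minutes of a stimulus, through MAP kinases and serum response factor, and decay quickly. C/EBPβ and C/EBPδ are bZIP proteins of the acute phase response that bind the promoters of IL6, CXCL8 and other inflammatory genes, and in senescent fibroblasts AP-1 and C/EBPβ are known for their part in the senescence-associated secretory phenotype (SASP). Both families are strongly controlled by phosphorylation and partner choice, which RNA levels do not measure.

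Each library held between 24624886 and 46224280 counts over all genes. The study's legends count such replicates as independent experiments, while the labels give each library a replicate number only. The labels' states could be checked in part. Transcripts of mtDNA took 1.76% to 2.92% of counts in Prol and Sen (IR), and 0.114% to 0.136% in Sen (IR) + CCCP. With mtDNA alone they took 0.0463% to 0.0537%, so the transfection did not show as more such transcripts. The 12 fibroblast markers were all detected, although their summed level was 37420 to 41000 CPM in Prol and 9212 to 9625 CPM in Sen (IR) + CCCP, and their part in the results was not tested. The 14 markers of epithelial, endothelial and blood cells summed to 4.11 CPM at most in any library. MKI67, a proliferation marker, fell from 59.1 CPM in Prol to 15.3 in Sen (IR). It stood at 30.4 CPM in Sen (IR) + CCCP and at 3.19 with acetate. CCNA2, another such marker, stood at 24.7 to 29.1 unscaled CPM in Prol and 17.5 to 19 in Sen (IR). In Sen (IR) + CCCP it was 45.6 to 50.8 and so above Prol. All 5 genes checked for arrest and proliferation were called higher on depletion, where 34% of the genes tested were. Proliferation markers thus moved with the comparisons below, and their part was not tested. In bulk RNA, fewer cells of a kind and less RNA per cell cannot be told apart. Sen (IR) replicate 3 and replicate 2 of the acetate and mtDNA group stood apart from the other libraries of their groups, with a mean chi-square per gene of 22.1 to 28.2 against their fellow replicates and at most 7.69 between any other replicates. The second of these also held 0.238% mtDNA transcripts, against 0.0626% and 0.0642% in the other libraries of its group. Member values that change their call without either library are given below.

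Between genes, levels can be compared only per length, as TPM, which corrects for transcript length. JUN was the most abundant member in Prol at 187 ± 5.8 TPM (SD, n = 3), followed by FOSL1 at 126 ± 10.6 TPM, and these also led in Sen (IR). FOS and FOSB were the least abundant in both groups, at 0.885 ± 0.0650 and 1.8 ± 0.511 TPM in Sen (IR). In Sen (IR) + CCCP the order was different, with FOSL1 at 241 ± 27 TPM and ATF3 at 234 ± 17.6 TPM ahead of JUN at 188 ± 4.18 TPM. ATF3 led with mtDNA, at 375 ± 14.7 TPM.

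Of the summed TPM of the 8 AP-1 genes, the 3 Jun genes made up 59.4% ± 0.938 in Prol (SD, n = 3), 53.1% ± 2.38 in Sen (IR) and 36.9% ± 2.02 in Sen (IR) + CCCP. The Jun share was 48.4% ± 1.65 with acetate, 34.5% ± 0.897 with mtDNA and 43.3% ± 0.703 with both. The share of ATF3 went from 5.34% ± 0.324 in Prol to 12.6% ± 0.910 in Sen (IR), 27% ± 0.515 in Sen (IR) + CCCP and 33.1% ± 1.09 with mtDNA. The summed level itself was 484 ± 18.2 TPM in Prol, 512 ± 36.1 in Sen (IR), 863 ± 49.3 in Sen (IR) + CCCP, 843 ± 8.98 with acetate, 1132 ± 66.1 with mtDNA and 1059.9 ± 77.7 with both. These sums rest on the TPM scale, on which the median gene was itself 0.35 higher (log2) in Sen (IR) + CCCP than in Sen (IR).

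**Figure D1:**
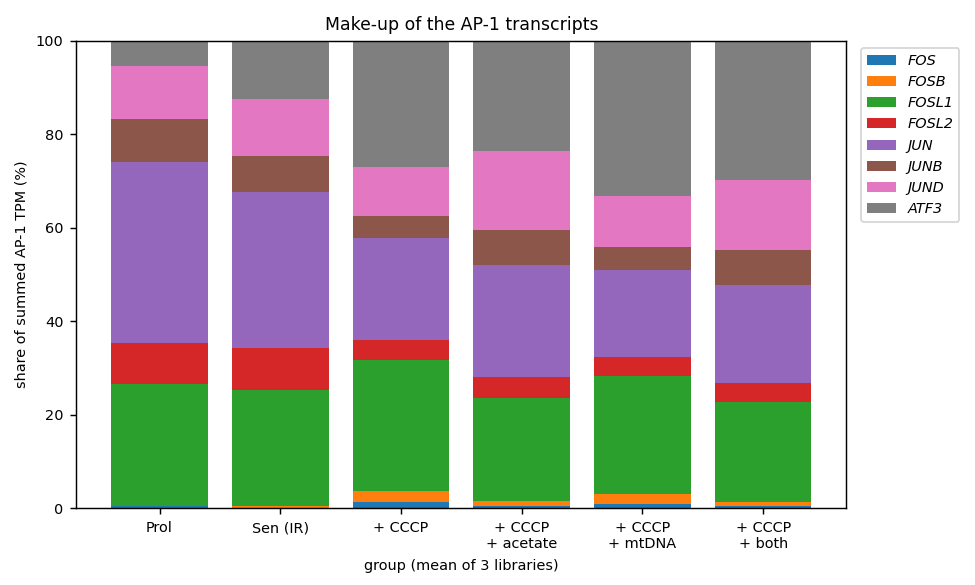
Share of the summed TPM of the 8 AP-1 genes (y axis, percent) taken by each gene in the 6 groups (x axis), as the mean of 3 libraries. The Jun genes together took 59.4% in Prol and 36.9% in Sen (IR) + CCCP, and ATF3 5.34% and 27%.

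The levels of 1 gene across groups are given as CPM, counts scaled to a common library size with TMM. FOS, the founding Fos gene, stood at 2.19, 1.74 and 2.0 CPM in the 3 Prol libraries and at 0.775, 0.729 and 0.654 in Sen (IR). It stood at 7.11, 7.6 and 6.71 CPM in Sen (IR) + CCCP. The ranges did not overlap: FOS was lowest in Sen (IR) and higher in every depleted library than in any Prol library. The fall from Prol to Sen (IR) was 2.72-fold (log2 fold change -1.44 ± 0.18 (SE), edgeR adjusted p = 4.21e-07), and the rise on depletion was 9.82-fold (log2 fold change 3.30 ± 0.15 (SE), edgeR adjusted p = 2.4e-14). FOS stood at 3.42, 3.68 and 3.13 CPM with acetate, 6.43, 7.47 and 7.4 with mtDNA and 3.24, 2.91 and 3.64 with both. The libraries given acetate, with or without mtDNA, all lay below the other depleted libraries and above those of Prol and Sen (IR). Acetate lowered FOS (log2 fold change -1.07 ± 0.11 (SE), edgeR adjusted p = 3.98e-08), as did both additions together (-1.13, edgeR adjusted p = 2.9e-08). The difference with mtDNA was -0.01 (95% confidence interval -0.23 to 0.21), and it did not pass the threshold.

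FOSB, a close relative of FOS, differed from it in Sen (IR) but shared the later pattern. Its levels were 0.782, 0.926 and 0.416 CPM in Prol, 1.78, 3.22 and 2.51 in Sen (IR) and 21.5, 24 and 18.1 in Sen (IR) + CCCP. These 3 groups did not overlap and rose in that order, by 1.84 (edgeR adjusted p = 9.57e-05) and then by 3.14 (edgeR adjusted p = 9.16e-12) on the log2 scale, 8.79-fold in the second step. With acetate FOSB stood at 9.3, 11.6 and 8.56 CPM, with mtDNA at 20.7, 30.5 and 24.7 and with both at 10.8, 7.95 and 12.1. Every library given acetate lay below every depleted library without it, and the fall with acetate was 2.17-fold (log2 fold change -1.12 ± 0.16 (SE), edgeR adjusted p = 4.86e-06). With mtDNA the difference was 0.25 (95% confidence interval -0.08 to 0.57) and did not pass. Within the acetate-treated cells, adding mtDNA gave -0.06 for FOS and 0.08 for FOSB, neither past the threshold. These are low transcripts: FOS had 19 to 33 counts in the Sen (IR) libraries, which limits the precision of folds over that group.

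The promoters of FOS and FOSB, both higher on depletion and lower with acetate, and of JUNB and JUND, both higher with acetate and with mtDNA, are printed to set their sequences side by side. The pairs did not move alike in every comparison, since in Sen (IR) over Prol FOS was lower and FOSB higher, and on depletion JUNB was called lower and JUND was not called. Each is the 250 bases before the RefSeq start (GRCh38.p14), 5′ to 3′ on the gene's own strand, in lower case with matches to the motifs below in capitals.
FOS (chr14:75278578-75278827, plus strand): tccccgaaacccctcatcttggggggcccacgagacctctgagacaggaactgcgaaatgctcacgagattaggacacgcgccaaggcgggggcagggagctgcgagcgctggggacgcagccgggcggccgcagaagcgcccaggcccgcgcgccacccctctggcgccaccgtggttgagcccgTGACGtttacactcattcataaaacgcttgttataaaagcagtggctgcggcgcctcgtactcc
FOSB (chr19:45467746-45467995, plus strand): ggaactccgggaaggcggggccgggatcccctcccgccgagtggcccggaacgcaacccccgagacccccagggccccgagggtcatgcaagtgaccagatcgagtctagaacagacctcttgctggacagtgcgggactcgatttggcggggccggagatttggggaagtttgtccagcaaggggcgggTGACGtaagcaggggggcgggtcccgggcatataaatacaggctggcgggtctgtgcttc
JUNB (chr19:12791236-12791485, plus strand): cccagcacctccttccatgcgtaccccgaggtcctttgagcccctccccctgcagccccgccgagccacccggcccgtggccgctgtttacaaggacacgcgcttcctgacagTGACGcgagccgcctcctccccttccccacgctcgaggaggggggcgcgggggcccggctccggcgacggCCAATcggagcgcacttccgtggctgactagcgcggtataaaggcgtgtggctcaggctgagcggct
JUND (chr19:18281623-18281872, minus strand): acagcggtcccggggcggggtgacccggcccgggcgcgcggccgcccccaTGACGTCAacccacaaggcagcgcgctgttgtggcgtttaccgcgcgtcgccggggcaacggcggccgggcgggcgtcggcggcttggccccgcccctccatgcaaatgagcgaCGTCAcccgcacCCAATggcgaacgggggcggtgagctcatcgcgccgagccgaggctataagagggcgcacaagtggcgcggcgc
RefSeq windows were found for 8 of the 10 members, FOSL1 and CEBPD having no entry, and for 7 of these a window began at the start of the canonical transcript. The exception was ATF3, which was not searched. The CRE core TGACG, searched on both strands, was in all 7 promoters and in 21.2% of 34941 RefSeq windows of the same length. It lay 64 bases before the start in FOS and 60 in FOSB. The full CRE, TGACGTCA, which contains the core on each strand, was in JUND alone among the 7 and in 1.63% of windows. CCAAT, on both strands, was in JUN, JUNB, JUND and CEBPB, and in 32.0% of windows. The TRE (TGACTCA, 4.22% of windows), TTGCNNAA for C/EBP (9.06%), TGATGCAA for the C/EBP-ATF element (0.776%), the NF-kB motif (1.73%) and the CArG box of serum response factor (1.16%) matched none of these 7 windows. Such matches describe letters in these windows and not binding. Sequence further than 250 bases before the start, and sites with other letters, were not searched, so a motif without a match may lie there.

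FOSL1 and FOSL2, which encode Fra-1 and Fra-2, the Fos proteins without a strong transactivation domain, moved in opposite directions on depletion. FOSL1 was 63 ± 4.09 CPM (SD, n = 3) in Prol and 59.9 ± 4.49 in Sen (IR), groups whose libraries overlapped. It stood at 91.2, 89.7 and 74.2 CPM in Sen (IR) + CCCP, above every Sen (IR) library (log2 fold change 0.51 ± 0.085 (SE), edgeR adjusted p = 1.9e-05). It was 69.7 ± 3.98 CPM with acetate, 106 ± 13.1 with mtDNA and 87 ± 5.8 with both. The acetate libraries overlapped those of Sen (IR) + CCCP, while those with mtDNA lay above them. The difference from Sen (IR) + CCCP was -0.29 (edgeR adjusted p = 0.00596) with acetate and 0.32 (edgeR adjusted p = 0.0108) with mtDNA. The first lost its call without Sen (IR) + CCCP replicate 1 (-0.21, edgeR adjusted p = 0.0641) or replicate 2 (-0.23, edgeR adjusted p = 0.0537), and the second without Sen (IR) + CCCP replicate 3 (0.24, edgeR adjusted p = 0.0675) or mtDNA replicate 2 (0.22, edgeR adjusted p = 0.0768) and on log2(TPM + 1), at 0.24 (limma adjusted p = 0.0934).

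FOSL2 was 80.4 ± 3.02 CPM in Prol and 83.8 ± 2.76 in Sen (IR), again with overlapping libraries. It fell to 49.6, 52.9 and 51.2 CPM in Sen (IR) + CCCP, below every library of both those groups (log2 fold change -0.71 ± 0.072 (SE), edgeR adjusted p = 1.31e-08). It was 55.6, 51.4 and 52.2 CPM with acetate, 66.9, 62.5 and 67.3 with mtDNA and 56.3, 75.5 and 63 with both. The libraries with mtDNA all lay above those of Sen (IR) + CCCP, with a rise of 0.36 (edgeR adjusted p = 0.00128), while the difference with acetate was 0.05 (95% confidence interval -0.10 to 0.20) and did not pass. Between both additions and acetate alone FOSL2 differed by 0.29 (edgeR adjusted p = 0.0105). That call was lost without replicate 2 of the combined group (0.17, edgeR adjusted p = 0.0657) or acetate replicate 2 (0.27, edgeR adjusted p = 0.0516). It was also lost in a fit of only the groups compared (0.29, edgeR adjusted p = 0.0823).

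JUN, the Jun protein with the strongest transactivation, stood at 179, 176 and 172 CPM in Prol, 160.2, 160.4 and 134 in Sen (IR) and 121, 127 and 125 in Sen (IR) + CCCP. Each group lay below the one before on this scale, by -0.21 (edgeR adjusted p = 0.00455) and -0.29 (edgeR adjusted p = 0.000279). The direction on depletion turned with the scale: on log2(TPM + 1) JUN was 0.15 higher in Sen (IR) + CCCP (limma adjusted p = 0.026), where the median gene was 0.35 higher, so that JUN was -0.21 relative to the median gene. JUN was 144 ± 4.05 CPM (SD, n = 3) with acetate, 147 ± 8.08 with mtDNA and 159 ± 8.59 with both. All 3 groups lay above Sen (IR) + CCCP, with differences of 0.21 (edgeR adjusted p = 0.00542), 0.24 (edgeR adjusted p = 0.00787) and 0.36 (edgeR adjusted p = 2.69e-05). On log2(TPM + 1) they were 0.11 (limma adjusted p = 0.103), 0.16 (limma adjusted p = 0.0485) and 0.22 (limma adjusted p = 0.00232), so that the call with acetate was lost on that scale.

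JUNB and JUND, Jun proteins that can restrain JUN in proliferating cells, responded to both additions. JUNB stood at 20.8, 22.4 and 22.7 CPM in Prol, 20.6, 18.7 and 15.4 in Sen (IR) and 13.7, 13.7 and 12.8 in Sen (IR) + CCCP. Depleted libraries were the lowest (log2 fold change -0.45 ± 0.096 (SE), edgeR adjusted p = 0.000309). On log2(TPM + 1) the difference was -0.0084, or -0.36 relative to the median gene, and did not pass (limma adjusted p = 0.935). The smaller difference of Sen (IR) from Prol, -0.26 (edgeR adjusted p = 0.0208), lost its call without Sen (IR) replicate 3 (-0.16, edgeR adjusted p = 0.134) and without Prol replicate 3 (-0.24, edgeR adjusted p = 0.0672), and stood at -0.19 (limma adjusted p = 0.07) on log2(TPM + 1). JUNB stood at 24.4, 21.5 and 22 CPM with acetate, 19.7, 18.8 and 19.7 with mtDNA and 28.7, 34 and 26.5 with both. All 9 of these libraries lay above those of Sen (IR) + CCCP, and the combined group lay above the rest. The rises were 0.75 (edgeR adjusted p = 5.28e-07) with acetate, 0.53 (edgeR adjusted p = 0.000417) with mtDNA and 1.14 (edgeR adjusted p = 7.42e-10) with both, 2.21-fold. JUNB overlaps HOOK2 on the opposite strand. The study's methods say that any stranded libraries were counted with regard to strand, but not whether these libraries were stranded, and reads of the overlap cannot be told apart if they were not.

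JUND, the most constitutively expressed Jun gene, stood at 26.9, 27.1 and 26.9 CPM in Prol, 29.5, 33.7 and 23.7 in Sen (IR) and 30.7, 32 and 31.4 in Sen (IR) + CCCP, with the Sen (IR) libraries overlapping both neighbours. Neither Sen (IR) over Prol (0.10, 95% confidence interval -0.08 to 0.28) nor Sen (IR) + CCCP over Sen (IR) (0.12, 95% confidence interval -0.06 to 0.29) passed. Without Sen (IR) replicate 3 the first did (0.22, edgeR adjusted p = 0.0137), and without Sen (IR) replicate 2 the second did (0.24, edgeR adjusted p = 0.0127). On log2(TPM + 1) the second was larger and passed, at 0.55 (limma adjusted p = 1.78e-05), or 0.19 relative to the median gene. Sen (IR) + CCCP over Prol passed with 0.22 (edgeR adjusted p = 0.0319), but in none of the 6 fits that left out 1 library of these groups (adjusted p of 0.0553 to 0.097 in edgeR). On log2(TPM + 1) it was 0.71 (limma adjusted p = 8.06e-07), or 0.30 relative to the median gene. JUND stood at 53, 50.5 and 55.9 CPM with acetate, 45.7, 48.2 and 43.2 with mtDNA and 57, 66.2 and 58.7 with both. The 9 libraries lay above every other library, with rises of 0.76 (edgeR adjusted p = 7.11e-08), 0.54 (edgeR adjusted p = 7.09e-05) and 0.95 (edgeR adjusted p = 2.2e-09).

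ATF3, a stress-induced ATF protein that pairs with Jun and can act as a repressor, was higher in every depleted group than in Sen (IR) and Prol. It stood at 29.1, 26.7 and 27.3 CPM in Prol, 64.1, 66.6 and 64.2 in Sen (IR) and 179.6, 187 and 161 in Sen (IR) + CCCP. The 3 groups did not overlap, with a 2.35-fold rise in senescence (log2 fold change 1.23 ± 0.1 (SE), edgeR adjusted p = 1.6e-09) and a further 2.71-fold rise on depletion (log2 fold change 1.44 ± 0.099 (SE), edgeR adjusted p = 2.39e-11). With acetate ATF3 stood at 165, 163 and 154 CPM, with mtDNA at 285, 304 and 303 and with both at 223, 333 and 235. Every library given mtDNA, with or without acetate, lay above every library without it. The rise was 0.76 (edgeR adjusted p = 4.82e-06) with mtDNA and 0.58 (edgeR adjusted p = 1.77e-05) with both, and ATF3 was also higher with both than with acetate alone (0.71 (edgeR adjusted p = 2.94e-05)). With no group labelled as given the reagent alone, mtDNA and its transfection cannot be told apart here. Acetate alone gave -0.13 (95% confidence interval -0.33 to 0.07), which did not pass. In a fit of only the groups compared it was called lower (-0.15, edgeR adjusted p = 0.00581). Replicate 2 of the combined group was the highest of the 18 libraries, and without it ATF3 was lower with both than with mtDNA (-0.36, edgeR adjusted p = 5.79e-06, against -0.18 (edgeR adjusted p = 0.119) with it). On log2(TPM + 1), with every library kept, that difference passed at -0.26 (limma adjusted p = 0.0327).

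CEBPB encodes C/EBPβ, whose single-exon mRNA yields activating and inhibitory isoforms that counts do not separate. It stood at 17.7, 18.2 and 17.2 CPM in Prol, 27.5, 33.8 and 23.8 in Sen (IR) and 46.4, 44.7 and 44.9 in Sen (IR) + CCCP. The groups did not overlap and rose by nearly equal steps, 0.68 (edgeR adjusted p = 4.09e-06) and 0.68 (edgeR adjusted p = 8.74e-07). CEBPB stood at 85.7, 73.2 and 74.5 CPM with acetate, 70.9, 80.7 and 72.3 with mtDNA and 83.4, 92.7 and 78.8 with both. These groups overlapped each other and lay above all other libraries. The rises over Sen (IR) + CCCP were 0.78 (edgeR adjusted p = 9.67e-08) with acetate, 0.72 (edgeR adjusted p = 2.83e-06) with mtDNA and 0.90 (edgeR adjusted p = 8.77e-09) with both. The combination thus fell short of the sum of the separate log2 changes, and CEBPB was the 1 member with an interaction past the threshold (log2 fold change -0.59 ± 0.12 (SE), edgeR adjusted p = 0.0237). That call was lost in 5 of the 12 fits that left out 1 library of the 4 depleted groups, at adjusted p of 0.0532 to 0.072 in edgeR. The libraries concerned were Sen (IR) + CCCP replicates 2 and 3, acetate replicate 1, mtDNA replicate 2 and replicate 3 of the combined group. CEBPB overlaps CEBPB-AS1 on the opposite strand, with the same limit as for JUNB.

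CEBPD, which encodes C/EBPδ, another acute phase factor, went the other way on depletion. It stood at 15.1, 15.6 and 13.5 CPM in Prol, 18.1, 20.1 and 13.3 in Sen (IR) and 7.16, 7.3 and 9.33 in Sen (IR) + CCCP. Depleted libraries lay below all of the others, a 2.18-fold fall from Sen (IR) (log2 fold change -1.12 ± 0.16 (SE), edgeR adjusted p = 1.46e-06). Sen (IR) and Prol overlapped and differed by 0.22 (edgeR adjusted p = 0.215), or by 0.37, edgeR adjusted p = 0.0359, without Sen (IR) replicate 3. CEBPD stood at 3.66, 2.73 and 4.11 CPM with acetate, 9.9, 7.04 and 8.82 with mtDNA and 4.14, 4.51 and 3.01 with both. The acetate-treated libraries were the lowest of all, 2.25-fold below Sen (IR) + CCCP (log2 fold change -1.17 ± 0.18 (SE), edgeR adjusted p = 7.1e-06), while mtDNA gave 0.13 (95% confidence interval -0.22 to 0.47), which did not pass. The ratio of CEBPB to CEBPD in TPM was 1.3 to 1.42 over the libraries of Prol, 1.7 to 1.99 in Sen (IR) and 5.36 to 7.21 in Sen (IR) + CCCP. It was 20.2 to 29.8 with acetate, 7.97 to 12.8 with mtDNA and 22.4 to 29.1 with both. CEBPD had 106 to 196 counts per library with acetate and 86 to 152 with both, which limits the precision of its values there.

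**Figure D2:**
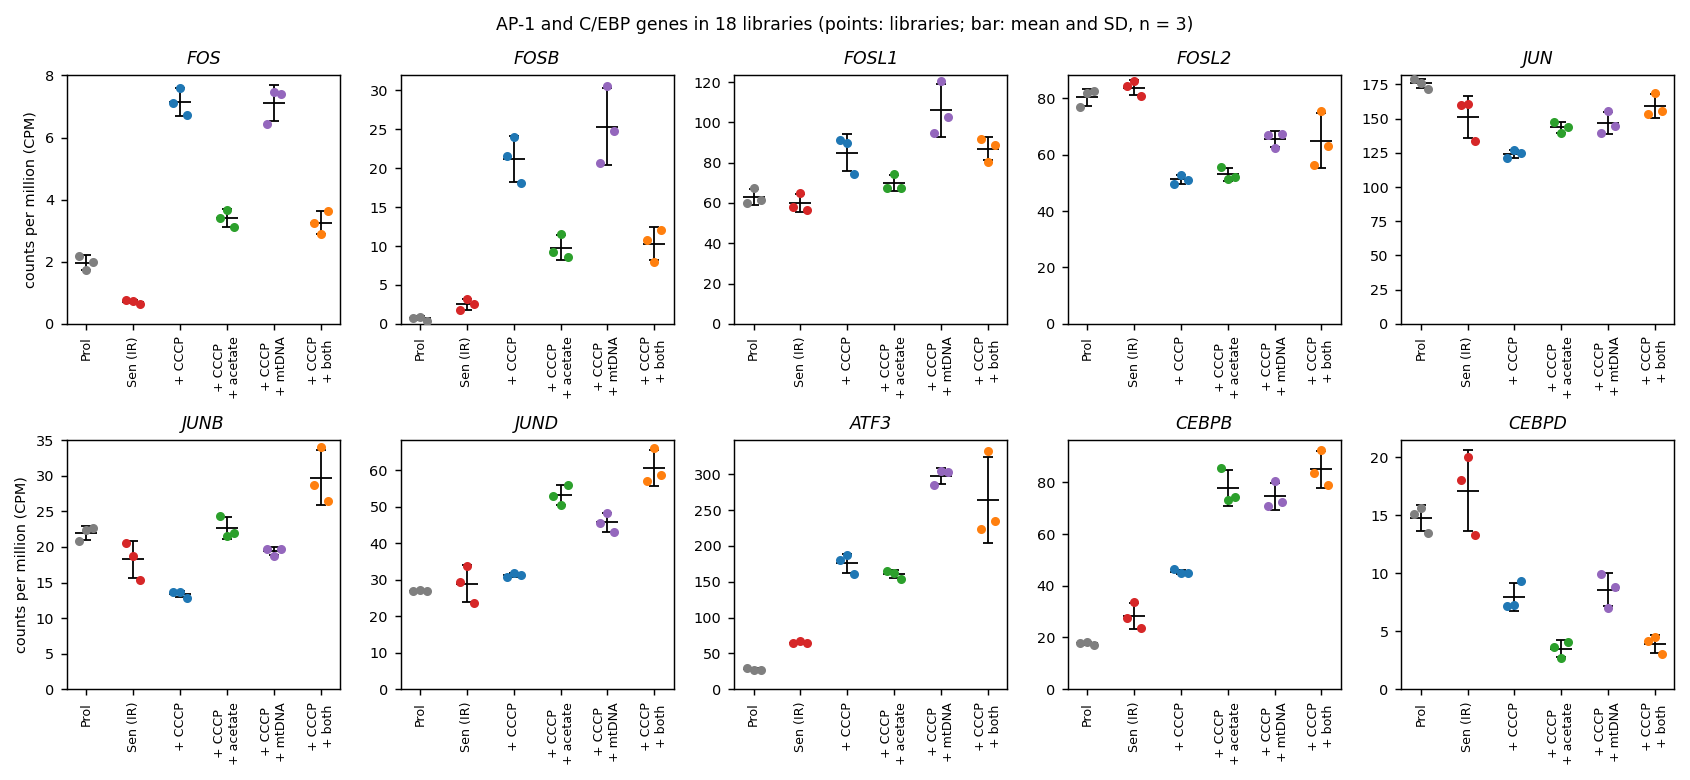
Level of each of the 10 genes (y axis, TMM-scaled CPM from 0, a separate scale in each panel) in the 6 groups (x axis), with points for the 3 libraries and bars for the mean and SD. FOS, FOSB and CEBPD are lower in the groups given acetate than in the other depleted groups, and ATF3 is highest in the groups given mtDNA.

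The number of members called in each comparison is given beside the share of all genes called. In Sen (IR) over Prol, 3 of the 10 members were higher and 3 lower, where 26.7% of the genes tested were higher and 29.9% lower (edgeR, adjusted p under 0.05). In Sen (IR) + CCCP over Sen (IR), 5 of the 10 members were higher and 4 lower, where 34% of the genes tested were higher and 31.3% lower. FOS, FOSB, FOSL1, ATF3 and CEBPB made up the first of these and FOSL2, JUN, JUNB and CEBPD the second, with the direction of JUN turning on the TPM scale. In Sen (IR) + CCCP over Prol, 6 of the 10 members were higher and 4 lower, where 35.1% of the genes tested were higher and 34.1% lower. On log2(TPM + 1) the lower calls of FOSL2, JUN and CEBPD in that comparison were lost, at -0.14 (limma adjusted p = 0.0782), 0.0079 (limma adjusted p = 0.902) and -0.38 (limma adjusted p = 0.0544). The median gene was itself 0.42 higher there, and relative to it these genes were -0.55, -0.41 and -0.79. The median member was 0.31 on the log2 scale in Sen (IR) + CCCP over Sen (IR), and the median gene 0.03.

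For acetate over Sen (IR) + CCCP, 4 of the 10 members were higher and 4 lower, where 28.8% of the genes tested were higher and 28.3% lower. JUN, JUNB, JUND and CEBPB rose with acetate while FOS, FOSB, FOSL1 and CEBPD fell, and the median member was -0.04. For mtDNA over Sen (IR) + CCCP, 7 of the 10 members were higher and 0 lower, where 10.7% of the genes tested were higher and 7.4% lower, and the median member was 0.34. FOSL1, FOSL2, JUN, JUNB, JUND, ATF3 and CEBPB were those higher with mtDNA. For both over Sen (IR) + CCCP, 6 of the 10 members were higher and 3 lower, where 30.3% of the genes tested were higher and 31.4% lower.

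When mtDNA was added to acetate-treated cells, 4 of the 10 members were higher and 0 lower, where 6.57% of the genes tested were higher and 6% lower. The 4 were FOSL1, FOSL2, JUNB and ATF3. The call of FOSL1 was lost without acetate replicate 1 (0.30, edgeR adjusted p = 0.0531) or replicate 3 (0.30, edgeR adjusted p = 0.0704), and without replicate 1 of the combined group (0.28, edgeR adjusted p = 0.0586) and on log2(TPM + 1), at 0.28 (limma adjusted p = 0.0756). When acetate was added to cells given mtDNA, 2 of the 10 members were higher and 4 lower, where 27.4% of the genes tested were higher and 29.9% lower. JUNB and JUND rose and FOS, FOSB, FOSL1 and CEBPD fell, FOSL1 losing its call without mtDNA replicate 2 (-0.17, edgeR adjusted p = 0.103). Without that library JUN (0.18, edgeR adjusted p = 0.0279) and CEBPB (0.26, edgeR adjusted p = 0.024) were also called higher, CEBPB also without replicate 3 of the combined group (0.25, edgeR adjusted p = 0.0271). For the interaction, 0 of the 10 members were higher and 1 lower, where 0.0765% of the genes tested were above and 0.583% below. The member was CEBPB, and without replicate 2 of the combined group JUND passed as well (-0.42, edgeR adjusted p = 0.0417).

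Against Sen (IR) cells that kept their mitochondria, 7 of the 10 members were higher and 2 lower with acetate, where 33.2% of the genes tested were higher and 32.7% lower. With mtDNA, 6 of the 10 members were higher and 2 lower, where 35% of the genes tested were higher and 32.5% lower, and with both, 7 of the 10 members were higher and 2 lower, where 32.2% of the genes tested were higher and 34.7% lower. FOS stayed above Sen (IR) in every depleted group, by 2.23 (edgeR adjusted p = 4.01e-11) with acetate and 3.29 (edgeR adjusted p = 2.42e-14) with mtDNA, and CEBPD stayed below it, by -2.29 (edgeR adjusted p = 6.59e-11) and -1.0 (edgeR adjusted p = 7.74e-06). JUNB was higher than in Sen (IR) with acetate by 0.30 (edgeR adjusted p = 0.00663), a call lost without Sen (IR) replicate 3 (0.20, edgeR adjusted p = 0.0557). FOSL1 was higher than in Sen (IR) with acetate by 0.22 (edgeR adjusted p = 0.027), a call lost without Sen (IR) replicate 1 (0.20, edgeR adjusted p = 0.081) or replicate 3 (0.19, edgeR adjusted p = 0.0896) or acetate replicate 2 (0.20, edgeR adjusted p = 0.0764). JUN did not pass against Sen (IR) with acetate or with mtDNA, and without Sen (IR) replicate 3 it was called lower with acetate (-0.16, edgeR adjusted p = 0.00865) and with mtDNA (-0.13, edgeR adjusted p = 0.0296). On log2(TPM + 1) it was called higher than in Sen (IR) in all 3 groups, at 0.26 (limma adjusted p = 0.000604) with acetate, 0.31 (limma adjusted p = 9.56e-05) with mtDNA and 0.37 (limma adjusted p = 1.74e-05) with both, where the median gene was 0.26, 0.29 and 0.19 higher. The 2 members called lower than in Sen (IR) were FOSL2 and CEBPD in each group. FOSL2 was -0.35 (edgeR adjusted p = 0.00016) with mtDNA and -0.37 (edgeR adjusted p = 9.25e-05) with both, and on log2(TPM + 1) -0.00015 (limma adjusted p = 0.999) and -0.082 (limma adjusted p = 0.306), neither of which passed. Relative to the median gene these last values were -0.29 and -0.28. JUNB with mtDNA was 0.08 (edgeR adjusted p = 0.46), and on log2(TPM + 1) it passed at 0.44 (limma adjusted p = 0.000216), or 0.15 relative to the median gene.

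**Figure D3:**
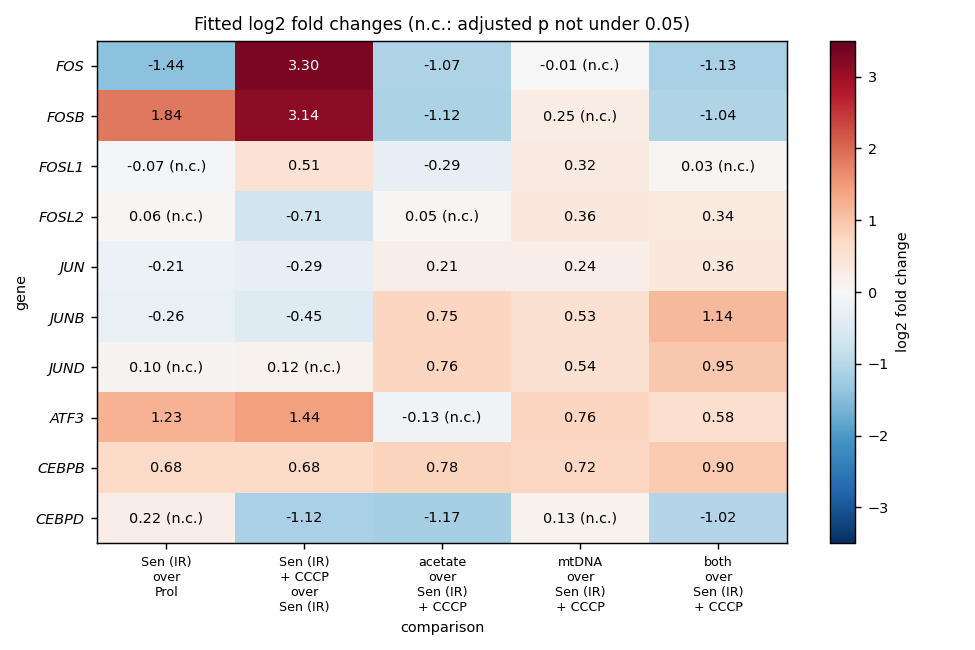
Fitted log2 fold changes of the 10 genes (rows) in 5 comparisons (columns), on TMM-scaled counts, with values not past an adjusted p of 0.05 marked n.c. FOS and FOSB carry the largest rises, 3.30 and 3.14 on depletion, and the small fall of JUN there, -0.29, turns to a rise of 0.15 on log2(TPM + 1). Relative to the median gene on that scale JUN was -0.21.

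**Figure D4:**
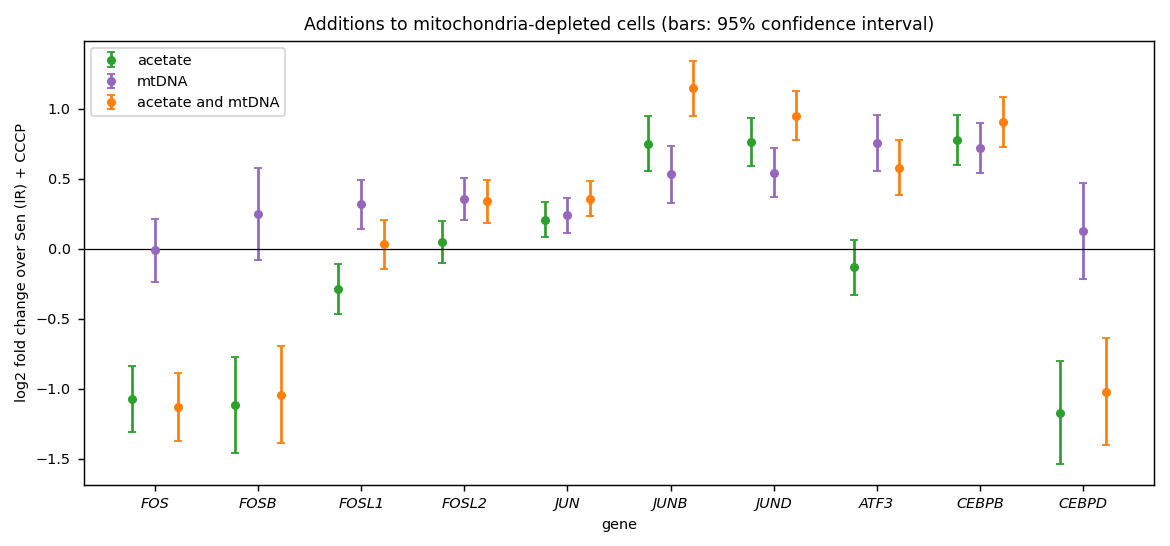
Log2 fold change over Sen (IR) + CCCP (y axis) with acetate, with mtDNA and with both for each gene (x axis), with 95% confidence intervals. With acetate FOS stood at -1.07 and JUND at 0.76, and with mtDNA at -0.01 and 0.54, the 3 comparisons sharing their control libraries.

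Genes known as AP-1 targets, among them metalloproteinases, growth factors and cytokines, were counted beside the factors. For this list and those below, the background is the share of all genes tested that was called. It was 26.7% higher and 29.9% lower in Sen (IR) over Prol, and 34% and 31.3% on depletion. With acetate it was 28.8% and 28.3%, with mtDNA 10.7% and 7.4%, and with both 30.3% and 31.4%. The median gene was 0.0054 with acetate, 0.0029 with mtDNA and -0.036 with both. No list was tested as a set. Several, such as IL6 and CCL2, are SASP genes that the study itself presents, so their direction is not independent evidence. In Sen (IR) over Prol, 19 of 23 were higher and 4 lower, with a median log2 fold change of 1.40, against -0.01 for all genes. On depletion 5 of 23 were higher and 14 lower, with a median log2 fold change of -0.49, against 0.03 for all genes. CXCL8, a neutrophil chemokine, fell from 724 to 13.4 CPM there and CCL2, a monocyte chemokine, from 239.8 to 4.34 CPM, while IL11, a cytokine of the IL-6 family, rose from 10.3 to 45.6 CPM and AREG, an EGF receptor ligand, from 6.15 to 21.8 CPM. With acetate 18 of 23 were higher and 3 lower, with a median log2 fold change of 0.54, with CXCL8 rising from 13.4 to 349 CPM and MMP3, a stromelysin, falling from 37.4 to 19.3 CPM. CCL2 fell further with acetate, from 4.34 to 2.15 CPM. With mtDNA 13 of 23 were higher and 0 lower, with a median log2 fold change of 0.28, with IL6 rising from 18.2 to 64 CPM. With both, 18 of 23 were higher and 1 lower, with a median log2 fold change of 0.73.

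Of 20 C/EBP targets, acute phase and inflammatory genes, 15 were tested. In Sen (IR) over Prol, 12 of 15 were higher and 1 lower, with a median log2 fold change of 3.26, or 2.93 with genes of at most 3 counts in every library of a group set to the bound that 3 counts per library give. On depletion 0 of 15 were higher and 15 lower, with a median log2 fold change of -4.28, or -3.12 with such genes at their bound. In that comparison CEBPB was 0.68 and CEBPD -1.12. C3, the central complement component, fell from 280.0 to 0.483 CPM. With acetate 9 of 15 were higher and 1 lower, with a median log2 fold change of 1.28. IL1B, an inflammatory cytokine, rose from 5.29 to 56.1 CPM, and the 1 gene called lower was CCL2. With mtDNA 6 of 15 were higher and 0 lower, with a median log2 fold change of 0.44, or 0.60 with such genes at their bound, and with both 10 of 15 were higher and 0 lower, with a median log2 fold change of 1.5. CSF3, SAA1 and SAA2 had at most 3 counts in every Sen (IR) + CCCP library, and SAA1 and SAA2 are near-identical copies whose counts are uncertain. The target lists share 4 genes, IL6, CXCL8, CCL2 and PTGS2.

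**Figure D5:**
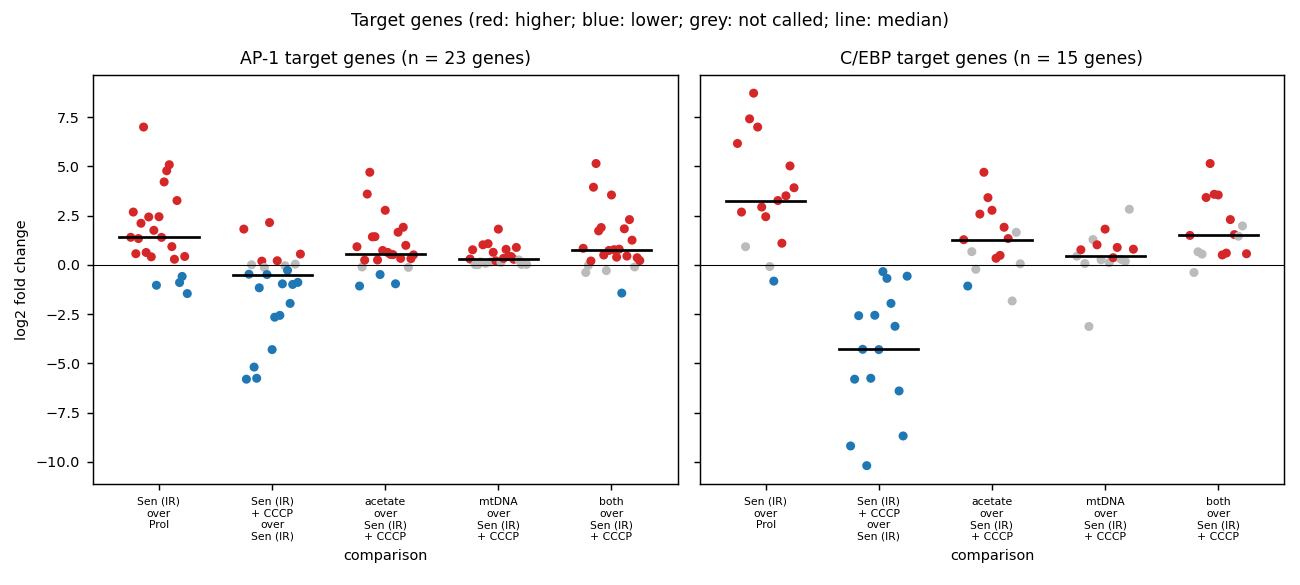
Fitted log2 fold changes (y axis) of the tested AP-1 targets (left) and C/EBP targets (right) in 5 comparisons (x axis), with points for genes, coloured by call, and a line at the median. On depletion the median was -0.49 for AP-1 targets and -4.28 for C/EBP targets, where fitted values of genes with at most 3 counts per library are no bounds.

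Other genes of the pathways were counted from lists of the factors' partners, inputs and inhibitors. Some counts lay near the shares of all genes given above. With acetate, 4 of 12 IL-6 and STAT3 inputs were higher and 3 lower, where 28.8% and 28.3% of all genes were. Of the bZIP partners, on depletion 17 of 21 were higher and 3 lower, with a median log2 fold change of 0.44, with ATF4, the main factor of the integrated stress response, rising from 166 to 609.8 CPM and MAFF, a small Maf protein, falling from 82.8 to 51.3 CPM. With acetate 10 of 21 were higher and 5 lower, with a median log2 fold change of 0.06, with JDP2, a repressor that pairs with Jun, rising from 21.8 to 52.1 CPM and ATF5 falling from 53.4 to 13.8 CPM. With mtDNA 8 of 21 were higher and 0 lower, with a median log2 fold change of 0.21, with BATF2, an interferon-inducible bZIP protein, rising from 0.951 to 31.3 CPM. In Sen (IR) over Prol, 7 of 21 were higher and 9 lower, with a median log2 fold change of -0.15, or -0.23 with genes of at most 3 counts in every library of a group at their bound, and with both additions 11 of 21 were higher and 6 lower, with a median log2 fold change of 0.23.

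Immediate early genes outside AP-1 were counted as well. In Sen (IR) over Prol, 10 of 24 were higher and 10 lower, with a median log2 fold change of -0.05, with EGR1, a serum-induced zinc finger factor, falling from 72.6 to 19.8 CPM. On depletion 15 of 24 were higher and 2 lower, with a median log2 fold change of 0.59, with NR4A2, an orphan nuclear receptor, rising from 11.2 to 69.3 CPM and IER3 falling from 158 to 35.3 CPM. With acetate 8 of 24 were higher and 10 lower, with a median log2 fold change of 0.08, with EGR3 falling from 1.08 to 0.438 CPM and IER3 rising from 35.3 to 144 CPM. With mtDNA 14 of 24 were higher and 0 lower, with a median log2 fold change of 0.33, with KLF4 rising from 18.2 to 34.1 CPM. With both, 14 of 24 were higher and 8 lower, with a median log2 fold change of 0.27.

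Feedback inhibitors of MAP kinases, the DUSP phosphatases and the Sprouty and Spred proteins, gave the following counts. On depletion 12 of 15 were higher and 3 lower, with a median log2 fold change of 0.36, with DUSP4 rising from 11.5 to 23.6 CPM and DUSP8 falling from 4.37 to 2.01 CPM. With acetate 9 of 15 were higher and 4 lower, with a median log2 fold change of 0.36, and here DUSP4 fell from 23.6 to 12.4 CPM and DUSP8 rose from 2.01 to 6.0 CPM. In Sen (IR) over Prol, 3 of 15 were higher and 8 lower, with a median log2 fold change of -0.15, with mtDNA 6 of 15 were higher and 0 lower, with a median log2 fold change of 0.10, and with both 10 of 15 were higher and 4 lower, with a median log2 fold change of 0.41. For the MAP kinases and serum response factors themselves, in Sen (IR) over Prol 5 of 28 were higher and 14 lower, with a median log2 fold change of -0.15, and on depletion 10 of 28 were higher and 12 lower, with a median log2 fold change of 0.05. MAPK3, which encodes ERK1, fell from 50.1 to 16.5 CPM on depletion and rose from 16.5 to 36.9 CPM with acetate. With acetate 17 of 28 were higher and 6 lower, with a median log2 fold change of 0.19, with mtDNA 4 of 28 were higher and 1 lower, with a median log2 fold change of -0.0017, and with both 17 of 28 were higher and 7 lower, with a median log2 fold change of 0.27. Of the IL-6 and STAT3 inputs to the C/EBP genes, in Sen (IR) over Prol 3 of 12 were higher and 5 lower, with a median log2 fold change of -0.10, and on depletion 2 of 12 were higher and 6 lower, with a median log2 fold change of -0.16. SOCS3, the feedback inhibitor of this pathway, rose from 9.1 to 19 CPM on depletion. With acetate 4 of 12 were higher and 3 lower, with a median log2 fold change of 0.11, with IL6R, the IL-6 receptor, falling from 12.6 to 4.94 CPM. With mtDNA 4 of 12 were higher and 0 lower, with a median log2 fold change of 0.13, and with both 6 of 12 were higher and 3 lower, with a median log2 fold change of 0.32.

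The genes whose log2 CPM followed each member most closely over the 18 libraries are given as a description, since the libraries fall into 6 groups and share depth and treatment. For FOS this was UHRF2 (r = 0.991), for FOSB ZBTB21 (r = 0.988), for FOSL1 PRPF19 (r = 0.947) and for FOSL2 CSF1 (r = 0.973), with Pearson's r in each case. For JUN it was AGRN (r = 0.923), for JUNB CCDC71L (r = 0.971) and for JUND RAB11FIP5 (r = 0.967). For ATF3 it was HSPA9 (r = 0.989), for CEBPB UBLCP1 (r = 0.984) and for CEBPD SUSD1 (r = 0.984). CSF1, the macrophage growth factor, followed FOSL2, and HSPA9, a mitochondrial chaperone, followed ATF3. JUN had the least close partner of the 10.

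In GRCh38 (GENCODE v44) the members lie apart: FOS at chr14:75278826-75282230, FOSB at chr19:45467995-45475179, FOSL1 at chr11:65892049-65900573, FOSL2 at chr2:28392448-28417317, JUN at chr1:58776845-58784048, JUNB at chr19:12791486-12793315, JUND at chr19:18279694-18281622, ATF3 at chr1:212565334-212620777, CEBPB at chr20:50190830-50192668 and CEBPD at chr8:47736913-47738164. The canonical transcripts of the 3 Jun genes and the 2 C/EBP genes have 1 exon, and those of the 4 Fos genes and ATF3 have 4.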

How the data were processed

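The raw counts per gene were deposited unnormalized. Per the labels, the authors made them with featureCounts (Subread 1.5.2) after trimming (Trimmomatic 0.36) and STAR 2.5.2b alignment, on build GRCh38. A table of TPM by the authors, corrected for gene length and depth, covers the same libraries. Samples were grouped by their titles, and 0 columns were left without a sample. All 18 libraries entered 1 quasi-likelihood model of edgeR 4.0.16 (R 4.3.3) (TMM, filterByExpr), with 16994 genes tested and Benjamini-Hochberg adjustment over all of them at 0.05. Standard errors are the log2 fold change over the square root of F. TPM served for levels between genes, and for limma 3.58.1 on log2(TPM + 1). Alternatives were DESeq2 1.42.0, other filters and scalings, a replicate block and leaving out each library. The procedure was tested on simulated data. The members and lists were chosen with earlier results of these data known, and the lists' named genes were drawn from the 2 that rose most and the 2 that fell most, among those called, in each of 5 comparisons. For each member, the 3 most alike genes were found and the first is named. Promoters are RefSeq's, gene positions GENCODE's. Totals of 24624886 to 46224280 counts per library leave little counting error except for FOS, FOSB and, in the groups given acetate, CEBPD.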

Additional observations from a re-analysis of the deposited data

Results flagged for a closer look

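CEBPB was singled out because its response to mtDNA differed with and without acetate, by a test of the difference itself. The interaction on the log2 scale was -0.59 (95% confidence interval -0.84 to -0.34, edgeR adjusted p = 0.0237). The rise with mtDNA was 0.72 without acetate and 0.13 with it, and all 3 libraries given mtDNA alone lay above the 3 of Sen (IR) + CCCP. The call was lost in 5 of 12 fits without 1 library and on log2(TPM + 1) (-0.55, limma adjusted p = 0.0722).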

How the results depend on the processing

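Over 1860 values of the members under alternatives, 1726 kept their direction and side of the threshold, 64 lost and 23 gained a call, and 47 changed direction. On log2(TPM + 1) with limma, an alternative chosen after seeing the data, JUN was 0.15 in Sen (IR) + CCCP over Sen (IR), 0.0079 over Prol, and 0.26 with acetate and 0.31 with mtDNA over Sen (IR), all but the second past the threshold and all opposite in sign to edgeR on counts, where the first was called lower (-0.29) and the second too (-0.50). Relative to the median gene on the TPM scale these JUN values were -0.21, -0.41, -0.0079 and 0.022. On that scale the small uncalled values of FOSL1 in Sen (IR) over Prol (0.0067) and with both over Sen (IR) + CCCP (-0.096), and of FOSL2 with acetate (-0.047), also turned. FOSL2 with both over mtDNA was 0.0066 with DESeq2's size factors and 0.0081 with DESeq2's Wald test and with the study's rule, against -0.02. Leaving out 1 library at a time turned the sign of other uncalled values. These ranged, in Sen (IR) over Prol, from -0.0359 to 0.22 for JUND, and on depletion from -0.00491 to 0.24 for JUND. With mtDNA over Sen (IR) + CCCP FOS ranged from -0.04 to 0.0661, and with both FOSL1 from -0.0286 to 0.11. With both over acetate the ranges were -0.13 to 0.00898 for FOS, -0.0448 to 0.22 for FOSB and -0.0123 to 0.31 for CEBPD, and with both over mtDNA -0.12 to 0.0922 for FOSL2. For the interaction they were -0.13 to 0.0212 for FOS, -0.0799 to 0.099 for FOSL1, -0.19 to 0.0207 for FOSL2, -0.24 to 0.0559 for ATF3 and -0.15 to 0.18 for CEBPD. Over Sen (IR) they were -0.13 to 0.00859 for JUN and -0.025 to 0.19 for JUNB with mtDNA, and -0.00859 to 0.14 for JUN with both.

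With the study's rule (nominal p and a log2 fold change of 0.5 in DESeq2) 4 members were called for mtDNA over Sen (IR) + CCCP in place of 7, and 1 for both over acetate in place of 4, the rule's fold minimum removing smaller changes. Over all genes, the calls in these comparisons were 1758 in place of 3071 and 1290 in place of 2136. For the interaction, 2 members were called with no filter on low counts, 0 on log2(TPM + 1), and 0 to 2 when 1 library was left out, in place of 1. Of all genes, 413 were called there with no such filter and 83 on log2(TPM + 1), in place of 112. The other counts of members called stayed within 1.5 times the reported ones. Same-numbered replicates deviated from their group means no more together (median r 0.00525) than others (-0.00181), so the numbers were not taken as pairs. The fit with the replicate block changed 1 call, CEBPB with both over mtDNA (0.18, edgeR adjusted p = 0.0435). CEBPB was also called there with DESeq2's size factors (0.21, edgeR adjusted p = 0.042) and with no filter on low counts (0.19, edgeR adjusted p = 0.0148). The same held in a fit of only the groups compared (0.20, edgeR adjusted p = 0.0366). The causes of these changes were not tested. Low counts limit FOS and FOSB in Prol and Sen (IR), and FOS and CEBPD in the groups given acetate.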
